A study of Mus musculus with 8 samples.

Results

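Immortalised mouse embryonic fibroblasts (MEFs) that carried Stat3-C3S were compared before and after hydrogen peroxide (H2O2). The cells came from Stat3 fl/fl embryos, were made Stat3-/- with an MSCV vector for Cre-Thy1.1, and were then transduced with a second vector for GFP and Stat3-C3S, in which redox-sensitive cysteines are replaced. They were sorted for Thy1.1 and GFP and kept as 1 polyclonal line, so line effects and effects of Stat3-C3S cannot be told apart. The groups were C3S basal (untreated) and C3S H2O2 (100 µM for 2 h), with 2 libraries each, taken between passage 15 and passage 20. The other 4 of the 8 libraries came from cells of the same origin that carried WT-Stat3, untreated or under the same H2O2, and serve here only to show where C3S cells differ. All 4 groups thus share the floxed background, the Cre deletion, both vectors and immortalisation.

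Of 19041 genes in the count table, 12673 had a mean expected count of at least 10 in C3S basal or C3S H2O2 cells, and these were tested. Calls needed a change of at least 2-fold and an adjusted p below 0.05 (edgeR quasi-likelihood test, Benjamini-Hochberg over all 12673). Values are counts divided by the size factor of the library ("normalised counts"), and log2 fold changes are C3S H2O2 over C3S basal with their standard error (SE). Bulk libraries do not tell fewer cells of a type from less RNA per cell. The C3S libraries held 17050016 to 21861869 counts, and same-group libraries had correlations across genes of 0.993 and 0.992. The basal libraries detected 14445 and 14771 genes with 1 count or more, and those after H2O2 15865 and 15734. Fibroblast markers summed to 285700 and 286800 normalised counts in the basal libraries and 251000 and 257100 after H2O2, and those of leukocytes to 100.7, 90.4, 306.3 and 295.1 in the same order. Among 25 leukocyte markers 18 had 3 or fewer counts over the basal libraries, and Tyrobp and Fcer1g had 0 in all 4 libraries. Epithelial, neural and skeletal muscle markers summed to 2244 to 2285, 2192 to 2237 and 133.7 to 136.7 in basal cells and to 2424 to 2477, 1963 to 2112 and 193 to 245 after H2O2. Mesothelial markers summed to 3417 to 3597 in basal cells and to 3450 to 3564 after H2O2. For endothelial markers the sums were 1199 to 1211 and 967 to 1047. Ptprc, the pan-leukocyte marker, had 0 to 3 counts in each of the 4 libraries, and Epcam, an epithelial marker, 0 to 4. Msln, a mesothelial marker, was well expressed, with 1503 to 1900 counts in each. Stat3 itself (chromosome 11, 100885098 to 100939540, mm10) stood at 5020 and 5164 normalised counts in the basal libraries and at 4660 and 4798 after H2O2 (log2 fold change -0.11, SE 0.0425, adjusted p = 0.052), a sum that neither separates the introduced transcript from any other nor shows the replaced cysteines.

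H2O2 crosses membranes and oxidises protein thiols. In fibroblasts it is known to activate MAP kinases, which switch on immediate early genes, to release Nrf2 from Keap1 at the antioxidant genes, and to engage the integrated stress response, in which Atf4 drives genes for amino acid supply. It also damages DNA, which stabilises p53, and metal release acts on the metallothionein genes through Mtf1. Stat3 is a transcription factor of cytokine signalling whose cysteines can be oxidised.

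In C3S cells 1068 of 12673 genes were called (8.43%), 871 higher (6.87%) and 197 lower (1.55%). By adjusted p alone, without a minimum fold, 2263 were higher (17.9%) and 2791 lower (22%). The count of higher calls leans on the filter. Among 11790 genes that reached a mean of 10 in both groups 347 were called higher and 162 lower. A further 741 genes reached it only after H2O2, and 524 of these were called higher (70.7%) and 0 lower. At such levels a call could only be a rise, and the list counts below include genes of this kind. With a minimum mean of 50 in place of 10, 282 were higher and 140 lower of 10672. Of the called genes with a mean of at least 1000 in the higher group, 51 were higher and 17 lower.

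**Figure D1:**
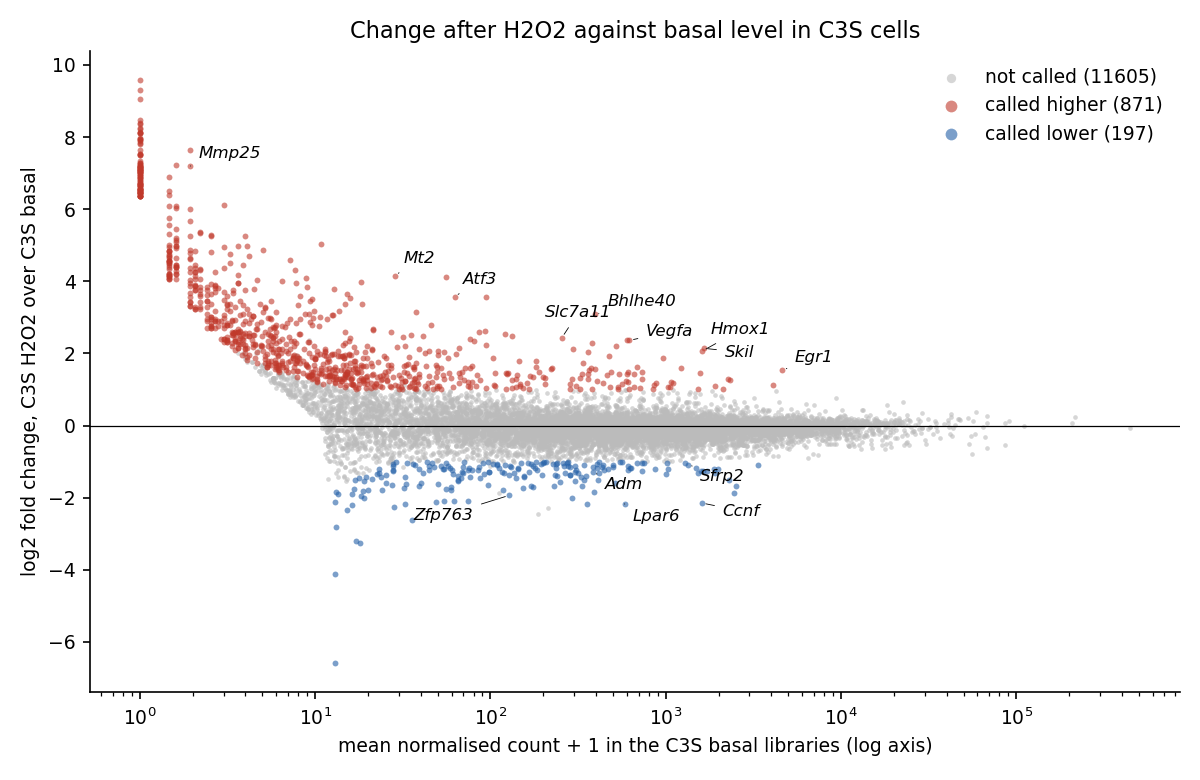
Each point is 1 of the 12673 tested genes, with the mean normalised count plus 1 of the 2 C3S basal libraries on a log axis and the log2 fold change after H2O2 on the vertical axis. Called genes are red (871 higher) and blue (197 lower), the largest changes lie at the lowest basal levels, and the labelled genes other than Mmp25 lie between -2.17 and 4.16.

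The promoters of 6 genes described below are shown for the short motifs they hold. All but Srxn1, which rose by less than 2-fold, were called higher. They do not cover every pathway named above, as no p53 site or metal response element was searched for. Each promoter shown is a run of 150 bases before the RefSeq start (GRCm38.p6, the same assembly as mm10), 5′ to 3′ on the strand of the gene. For Chac1 the run covers bases 250 to 101 before the start, and for the others the last 150. Capitals mark the composite of Atf4 and C/EBP, TGATGNAAN, in Slc7a11 (chr3:50443614-50443763, minus strand), Atf3 (chr1:191183334-191183483, minus strand) and Chac1 (chr2:119350992-119351141, plus strand). In Srxn1 (chr2:152105374-152105523, plus strand) they mark the AP-1 site TGANTCA, in Dusp8 (chr7:142095285-142095434, minus strand) the cAMP response element TGACGTCA, and in Mt2 (chr8:94172468-94172617, plus strand) the core of the antioxidant response element, TGACNNNGC. Both strands were searched, so a capital run may be the reverse complement.
Slc7a11: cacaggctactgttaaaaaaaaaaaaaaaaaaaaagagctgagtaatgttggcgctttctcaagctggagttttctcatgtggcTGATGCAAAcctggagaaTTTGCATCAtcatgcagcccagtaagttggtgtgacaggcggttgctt
Atf3: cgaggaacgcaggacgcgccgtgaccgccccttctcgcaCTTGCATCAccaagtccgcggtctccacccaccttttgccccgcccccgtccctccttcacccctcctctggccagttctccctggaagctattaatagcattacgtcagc
Chac1: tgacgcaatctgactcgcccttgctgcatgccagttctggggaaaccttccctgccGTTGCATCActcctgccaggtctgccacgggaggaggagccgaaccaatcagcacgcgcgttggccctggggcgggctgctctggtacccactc
Srxn1: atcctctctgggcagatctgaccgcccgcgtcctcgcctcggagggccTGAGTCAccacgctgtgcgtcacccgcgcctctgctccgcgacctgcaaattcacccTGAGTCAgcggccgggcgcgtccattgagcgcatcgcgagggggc
Dusp8: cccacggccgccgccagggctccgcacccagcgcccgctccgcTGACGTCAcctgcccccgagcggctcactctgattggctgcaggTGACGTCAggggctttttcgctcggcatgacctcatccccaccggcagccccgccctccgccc
Mt2: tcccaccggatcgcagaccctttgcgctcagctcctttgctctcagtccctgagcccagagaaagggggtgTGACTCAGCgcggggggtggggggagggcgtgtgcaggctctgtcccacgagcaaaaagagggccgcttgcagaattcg

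In windows from 250 bases before to 50 after the start, the Atf4 and C/EBP composite was found for 35 of 645 genes called higher (5.43%), 5 of 156 called lower (3.21%) and 267 of 10031 tested genes with a window (2.66%), against 4.5% of all 27025 genes of the promoter table. The AP-1 site was found for 67 genes called higher (10.4%), 10 called lower (6.41%) and 620 of all tested (6.18%), against 8.97% of the whole table. For both motifs the share among higher calls was thus above that of tested genes and close to that of the whole table, which includes genes silent in these cells. The antioxidant response element core stood at 17.1%, 14.7% and 16.8% in the higher, lower and all tested genes, the cAMP response element at 2.95%, 5.13% and 3.59%, and the Stat3 site TTCCNGGAA at 1.24%, 1.28% and 1.44%. The CArG box of serum response factor stood at 1.86%, 5.13% and 1.67%, the Egr1 site GCGTGGGCG at 1.86%, 1.28% and 1.42%, the heat shock element at 0.775%, 0% and 0.608%, and the Hif-1 core at 57.1%, 56.4% and 67.7%. The AP-1 and antioxidant element patterns share bases, as in Mt2 above, and a match is a description of the letters and not of binding.

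Immediate early genes code for short-lived transcription factors and signalling inhibitors, and part of them were higher in C3S cells, led by Atf3, Arc and the Nr4a and Egr families. All 6 of 6 tested genes of the Nr4a, Arc and Csrnp1 group rose (median log2 fold change 2.29), as did 4 of 6 Egr and Nab genes (median 1.48), 10 of 28 other early genes (1 lower, median 0.58) and only 2 of 10 AP-1 subunits with Atf3 (median 0.274). Over all tested genes 6.87% were called higher and the median was -0.02. The rises include genes that reached the minimum mean only after H2O2, where a call could only be a rise. Examples are Egr4 (0 counts over the basal libraries and 21 after H2O2), Rgs2 (1 and 21) and Nr4a3 (13 and 99).

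Atf3, a stress-induced bZIP repressor, stood at 63.5 and 59.3 normalised counts in the basal libraries and at 745 and 715 after H2O2 (log2 fold change 3.57, SE 0.117, adjusted p = 8e-15). Arc, an immediate early gene best known from neurons, stood at 99.5 and 87.6 and then at 1067 and 1135 (3.56, SE 0.0981). Nr4a1, an orphan nuclear receptor, went from 621 and 573 to 3119 and 3003 (2.36, SE 0.0577). The groups of each of these genes lie far apart, with both H2O2 libraries above both basal ones.

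Egr1, the early growth response factor, was already abundant at 4752 and 4500 normalised counts and reached 13290 and 13460 (1.53, SE 0.0419). Egr2 rose from 77.9 and 81.9 to 414 and 402 (2.35, SE 0.129), and Egr3 from 30 and 46.1 to 95.2 and 115 (1.43, SE 0.236). Csrnp1, a nuclear protein with a cysteine- and serine-rich domain, rose from 549 and 484 to 2422 and 2342 (2.21, SE 0.0633).

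The AP-1 subunits themselves split. Junb rose from 1012 and 902 to 3529 and 3501 (1.88, SE 0.0555), whereas Jun stood at 5494 and 5269 before and 6423 and 6417 after (0.26, SE 0.0417), under the 2-fold threshold. Fosb stood at 1439 and 1493 and then at 2705 and 2824 (0.91), and Fos, the founding member, at 848 and 883 and then at 644 and 639 (-0.43, adjusted p = 3.5e-05). The 2 h sample thus held less Fos than the basal one, in both libraries.

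Growth factor and feedback genes of this class were also higher. Lif, a ligand of the gp130 receptor, rose from 112 and 129 to 699 and 712 (2.54, SE 0.104). Dusp8, a phosphatase of stress-activated MAP kinases whose promoter holds the capitals shown above at a pair of places, rose from 339 and 389 to 1065 and 1076 (1.55, SE 0.0761). Dusp4 rose from 122 and 126 to 347 and 339 (1.46), while Dusp6, a phosphatase of Erk, stood at 1542 and 1428 and then at 871 and 783 (-0.84, not called). Spry1, an inhibitor of receptor tyrosine kinase signalling, fell from 62.3 and 60.3 to 15.3 and 13.4 (-2.08, SE 0.314), and Spry2 stood at 1134 and 1052 and then 2159 and 2148 (0.98, just under the threshold). Klf11, Klf10 and Klf9 rose by 1.80, 1.59 and 1.48, and Klf2 fell by 1.20 on the log2 scale.

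**Figure D2:**
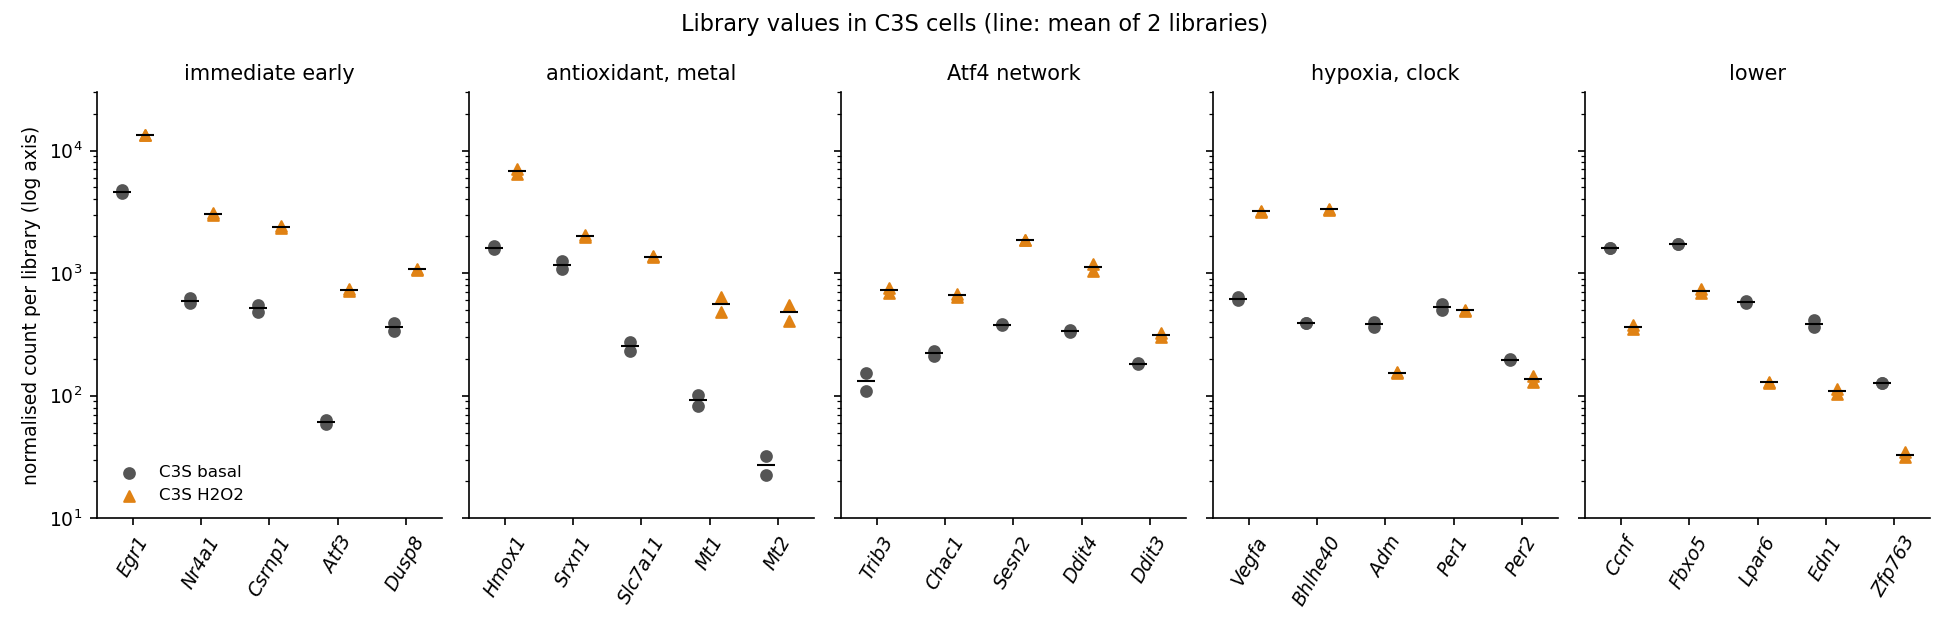
Normalised counts of 25 genes are plotted on a log axis, with circles for the 2 C3S basal libraries, triangles for the 2 C3S H2O2 libraries and a line at each mean. Egr1 stands near 13290 after H2O2 against near 4500 before, Mt2 moves from 22.6 and 32.4 to over 409, and the genes of the last panel, such as Ccnf, lie lower after H2O2.

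Of the 6 antioxidant lists, each held 0 to 2 called genes of 7 to 20 tested, all higher, where 6.87% of all tested genes were called higher. Hmox1, the haem oxygenase that breaks down haem (chromosome 8, 75093621 to 75100589), stood at 1657 and 1573 normalised counts before and at 7058 and 6448 after H2O2 (2.07, SE 0.0521, adjusted p = 2e-16). It was the only one of 15 haem and iron genes called. Slc7a11, the light chain of the cystine and glutamate exchanger, rose from 277 and 232 to 1370 and 1355 (2.43, SE 0.0795), and Chac1, which degrades glutathione, from 231 and 212 to 641 and 677 (1.58, SE 0.0928). These were the 2 of 16 glutathione genes called, and both promoters hold the Atf4 composite shown above. The composite did not go with 1 outcome. It also lies in the windows of Trib3 and Vldlr, which were called higher. Asns and the aminoacyl-tRNA synthetase gene Gars hold it too and were not called, and the proteoglycan gene Aspn holds it and was called lower.

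Of the other standard Nrf2 targets, Srxn1, Nqo1, Gclm and Gclc moved by less than 2-fold. Srxn1, which repairs overoxidised peroxiredoxins, stood at 1090 and 1252 and then at 1985 and 2031 (0.77, adjusted p = 4.7e-09). The quinone reductase Nqo1 went from 258 and 334 to 409 and 363 (0.37), and Gclm and Gclc, the subunits of glutamate-cysteine ligase, changed by 0.29 and 0.20. Osgin1, an oxidative stress-induced growth inhibitor, was the 1 of 18 quinone, NADPH and export genes called, from 53.9 and 50.9 to 149 and 126 (1.39). Maff, a small Maf partner of Nrf2, was the 1 of 9 genes in its group called (1.24, SE 0.0643), with Nfe2l2 at 0.31 and Keap1 at 0.12.

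Among enzymes that handle superoxide and peroxides, none of 7 superoxide dismutase, catalase and glutathione peroxidase genes was called by edgeR, or DESeq2, with 3 under an unadjusted p of 0.05 and the same number passing the adjusted p (1 higher, 2 lower). Cat, the catalase, stood at 712 and 689 before and 841 and 834 after (0.26), Gpx1 at 4065 and 3737 and then 3331 and 2901 (-0.32), and Gpx8 at 1755 and 1735 and then 1432 and 1373 (-0.31). Sod2, which turns superoxide into H2O2, and the peroxiredoxin Prdx1 had changes of 0.08 and 0.02. Sesn2, a stress-induced sestrin, was the only called gene of 20 in the thioredoxin and peroxiredoxin group. It rose from 378 and 382 to 1880 and 1853 (2.29, SE 0.0634).

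Metallothioneins, small zinc-binding proteins with many thiols, showed some of the largest changes. Mt2 stood at 32.4 and 22.6 normalised counts in the basal libraries and at 555 and 409.8 after H2O2 (4.16, SE 0.199). Mt1, its neighbour on chromosome 8, rose from 102 and 81.9 to 635 and 481 (2.62, SE 0.15), and Slc30a1, which exports zinc, from 349 and 366 to 954 and 989 (1.44, SE 0.0743). All 3 lie apart between groups, though the H2O2 libraries differed from each other more for the metallothioneins than for Slc30a1.

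Genes of the Atf4 network rose in part. Of 18 transcription factors and regulators 6 rose (median 0.701), and of 23 genes for amino acid transport and synthesis 1 rose (median 0.218), though 14 passed the adjusted p as higher. The shares over all tested genes were 6.87% called higher and 17.9% higher by adjusted p. Trib3, a pseudokinase that restrains Atf4, went from 155 and 108 to 751 and 693 (2.48, SE 0.119). Ddit4, an inhibitor of mTORC1, went from 329.7 and 342 to 1177 and 1049 (1.73), and Ppp1r15a, which recruits the eIF2α phosphatase, rose by 1.21.

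Atf4, which is controlled chiefly by translation, stood at 6215 and 6359 and then at 9901 and 9186 (0.60, SE 0.0435). Ddit3, which encodes Chop, went from 179.8 and 186 to 304 and 327 (0.79), and Asns, the asparagine synthetase, from 2184 and 2393 to 2787 and 2731 (0.27), both below the threshold. No aminoacyl-tRNA synthetase of 21 was called by edgeR or DESeq2, and 8 were higher by unadjusted and adjusted p, led by Nars at 0.24. Dnajb9, a cochaperone of the endoplasmic reticulum, was the 1 of 28 unfolded protein response genes called (1.40, SE 0.077), and Hspa5 stood at 0.31. All-gene shares are the 6.87% and 17.9% given above.

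Among p53 targets, 5 of 24 genes of arrest and feedback rose, where 6.87% of all tested genes were called higher. Their median was -0.03, with 10 higher and 6 lower by adjusted p (17.9% and 22% over all tested genes). The 5 include Sesn2 and Btg2, which also stand in other lists above. Mdm2, the ubiquitin ligase of p53, went from 2287 and 2232 to 5641 and 5435 (1.29, SE 0.0451), and Gadd45a, a growth arrest protein, from 101 and 69.7 to 509.8 and 499 (2.59, SE 0.136). Cdkn1a, which encodes p21, stood at 2064 and 2057 and then at 3616 and 3639 (0.82), and Trp53 at 4068 and 4014 and then 4130 and 3780 (-0.03). Of 15 death genes only Pmaip1, which encodes Noxa, rose (1.60, SE 0.0953), and no gene of 12 for repair and metabolism was called by edgeR or DESeq2, with 3 under an unadjusted p of 0.05. Several of these genes are also known to respond to other stresses.

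Of 35 heat shock genes 4 rose and 21 passed the adjusted p as higher, where the shares over all tested genes were 6.87% and 17.9%. Hspa1a went from 185 and 191 to 512 and 549 (1.49, SE 0.101), and Hspa1b from 1150 and 1045 to 2511 and 2480 (1.19), and these near-identical neighbours may share reads. The constitutive Hspa8 stood at 66530 and 70090 and then at 71680 and 72250 (0.08, adjusted p = 0.11).

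Hypoxia-linked genes moved in both directions. Bhlhe40, a basic helix-loop-helix repressor of the hypoxia response and the clock, stood at 389.6 and 394 and then at 3295 and 3334 (3.08, SE 0.0582, adjusted p = 4.2e-18), the smallest adjusted p in the text. Vegfa, the vascular growth factor, went from 603 and 636 to 3167 and 3216 (2.36, SE 0.0551), and Ndrg1 from 711 and 649.7 to 2089 and 2057 (1.61). Adm and Edn1, which encode the vasoactive peptides adrenomedullin and endothelin-1, went the other way. Adm fell from 397 and 365 to 153 and 156 (-1.30, SE 0.115), and Edn1 from 361 and 413 to 114 and 104 (-1.84, SE 0.129).

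Glycolytic genes of the same pathway were not called, 0 of 23 by edgeR and by DESeq2, though 12 passed the adjusted p as higher and 0 as lower (13 and 0 at an unadjusted p under 0.05). The glucose transporter Slc2a1 stood at 2402 and 2479 and then at 4001 and 3857 (0.69), hexokinase 2 (Hk2) at 1294 and 1309 and then 2024 and 2005 (0.63), and Gapdh at 44820 and 44230 and then 47410 and 42650 (0.02). Over all tested genes 17.9% were higher by adjusted p and 6.87% were called higher. Of 22 clock genes 4 rose. Besides Bhlhe40 these were Gm129 (2.15), a repressor of Clock and Bmal1, Rora (1.59) and Nr1d1 (1.07, but 0.99 without basal replicate 1), which encodes Rev-erbα, while Per1 and Per2 stood at -0.08 and -0.52.

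In Stat3's own pathway, 2 of 16 SOCS and Pim genes (1 higher, 1 lower) and 2 of 15 genes for gp130 ligands, receptors and Jak kinases (both higher) were called, where 8.43% of all tested genes were. None of 6 Stat genes was called by edgeR or DESeq2, and 6 and 5 were lower by unadjusted and adjusted p (median -0.25). Pim1, a kinase and known Stat3 target, rose from 354 and 391 to 1125 and 1126 (1.59, SE 0.0727). Socs3, the feedback inhibitor of Stat3, stood at 333 and 309.8 before and 311 and 314 after (-0.04, SE 0.102), with overlapping groups, and Socs1 fell from 83.9 and 86.6 to 41.6 and 35.6 (-1.14). Among gp130 ligands Il11 rose from 19.2 and 21.7 to 134 and 126 (2.65, SE 0.235).

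Inflammatory genes changed in both directions. Nfkbia, the inhibitor of NF-kB, rose from 750.5 and 704 to 1935 and 2110 (1.48), while the neutrophil chemokines Cxcl1 and Cxcl5 fell by 1.07 and 1.18 on the log2 scale, Cxcl1 at -0.91 and uncalled without H2O2 replicate 2. Of 27 interferon-stimulated genes 5 rose (median -0.05), where 6.87% of all tested genes were called higher. DESeq2 called 4 higher. Zbp1, among the 5, had 2 counts over the basal libraries and 43 after H2O2, so it passed the filter only through the H2O2 group. Ifit3 rose by 1.11, but by 0.96 without H2O2 replicate 2. Each of the 5 stayed under 100 normalised counts after H2O2, such as Isg20, an exonuclease, from 37.2 and 34.8 to 85.3 and 94.7. The leukocyte marker sums given above rose as well, and their part in the result was not tested.

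Genes of mitosis were lower in small steps while those of DNA replication were not. Of 54 genes of replication and S phase 0 were called by edgeR or DESeq2, with 9 higher and 14 lower at an unadjusted p under 0.05 and 8 and 11 by adjusted p (median 0.00). Of 35 G2 cyclins and mitotic kinases 2 fell and 22 were lower by adjusted p (median -0.20), and of 39 spindle and cytokinesis genes 1 fell and 30 were lower by adjusted p (median -0.27). All-gene shares at these thresholds are the 1.55% and 22% given above.

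Ccnf, the cyclin F of the SCF ubiquitin ligase (chromosome 17, 24222198 to 24251484), fell from 1598 and 1613 to 374 and 349.6 normalised counts (-2.15, SE 0.0669, adjusted p = 4.1e-15). Fbxo5, which encodes the anaphase inhibitor Emi1, fell from 1719 and 1722 to 684 and 744 (-1.27, SE 0.0599), and Kif18a, a mitotic kinesin, from 984 and 1008 to 391.7 and 391 (-1.35, SE 0.0716). Ccnb1, Plk1 and Cdc20, which drive mitosis, changed by -0.24, -0.35 and -0.15.

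Of 57 replication-dependent histone genes 20 fell and 2 rose (median -0.95), where 1.55% of all tested genes were called lower. Hist1h3h, an H3 gene, stood at 368 and 344 before and at 62.4 and 93.5 after (-2.19, SE 0.153). Hist1h1b, a linker histone gene, fell from 228 and 232 to 54.7 and 89.1 (-1.68). These genes are near-identical copies whose mRNAs lack a poly(A) tail, so their counts are uncertain, and the H2O2 libraries differed from each other, as for Hist1h3g at 30.6 and 75.7. Hist2h2be, one of the histone genes that can be polyadenylated, rose from 32.4 and 44.3 to 177 and 163 (2.12).

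Genes of high level moved as well. Phlda1, a pleckstrin-like early gene product, rose from 4321 and 3868 to 8581 and 9085 (1.11), and Ppp1r10, a nuclear subunit of protein phosphatase 1, from 2329 and 2324 to 5437 and 5756 (1.27). Rnd3, a small GTPase, fell from 3263 and 3447 to 1575 and 1552 (-1.10), and Adam19, a membrane protease, from 1889 and 2082 to 876 and 863 (-1.19).

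Other large falls were in signalling and developmental genes. Lpar6, a receptor for lysophosphatidic acid, fell from 571 and 590.4 to 128 and 129 (-2.17, SE 0.106). Lfng, the fringe glycosyltransferase of Notch, fell from 302 and 282 to 64.5 and 81.3 (to 0.25 of its basal mean), and Osr1, a transcription factor of limb mesenchyme, from 2519 and 2388 to 659 and 693 (-1.86, SE 0.0578). Ajuba, a LIM protein of junctions and the Hippo pathway, fell from 2587 and 2444 to 823 and 744 (-1.68), and Irs1, the insulin receptor substrate, from 2287 and 2273 to 817 and 792 (-1.50).

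Many matrix and contractile genes were lower by adjusted p at less than 2-fold, where 22% of all tested genes were lower by that measure. Of 26 collagen chains 1 fell and 16 were lower by adjusted p, with 4 higher that were all low in basal cells, such as Col2a1, the cartilage collagen, from 64.7 and 49.9 to 138 and 175 (1.46). Col1a1, the main fibroblast collagen, stood at 57010 and 58680 and then 48610 and 50300 (-0.23), and Acta2, smooth muscle actin, at 42630 and 43010 and then 35290 and 35170 (-0.28). Of 22 smooth muscle actin and contractile genes 14 were lower by adjusted p, and the 2 called were both higher, from few counts. DESeq2 called 0 of the 22. Myocd, a coactivator of smooth muscle genes, went from 5.99 and 1.88 to 15.3 and 20.0 (2.21), and Myh11, the smooth muscle myosin heavy chain, from 3.6 and 12.2 to 35.0 and 20.0 (1.70). Of 18 fibroblast markers 0 were called by edgeR or DESeq2 and 14 were lower by unadjusted and adjusted p (median -0.30).

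Skil and Smad7, feedback inhibitors of TGF-β signalling, rose, the 2 called genes of 42 in their group, with 18 lower by adjusted p and 0 lower at 2-fold in edgeR or DESeq2. Among all tested genes 6.87% were called higher, 1.55% were called lower and 22% were lower by adjusted p. Skil stood at 1614 and 1684 and then at 7187 and 7388 (2.14, SE 0.0464), and Smad7 at 1585 and 1547 and then 4396 and 4265 (1.47). Of 39 Wnt genes 4 were called higher and 4 lower (6.87% and 1.55% over all tested genes), with a median of -0.32. DESeq2 called 1 higher and 4 lower. By adjusted p alone 6 were higher and 20 lower, against 17.9% and 22% over all tested genes. The receptor Fzd5 fell from 1499 and 1567 to 617 and 615 (-1.32), the secreted modulator Sfrp2 from 1356 and 1311 to 674 and 585 (-1.08, but -0.98 and uncalled without H2O2 replicate 2), and Gas1, a hedgehog co-receptor, from 1555 and 1420.0 to 671 and 646 (-1.17).

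Housekeeping groups moved little. None of 83 cytosolic ribosomal protein genes, 75 nuclear genes of oxidative phosphorylation and 45 proteasome genes was called by edgeR or DESeq2. At an unadjusted p under 0.05 35, 2 and 17 were higher and 1, 7 and 2 lower. By adjusted p alone 23, 2 and 15 were higher and 1, 6 and 2 lower, with medians of 0.08, -0.05 and 0.09. The shares over all tested genes by adjusted p were 17.9% higher and 22% lower.

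**Figure D3:**
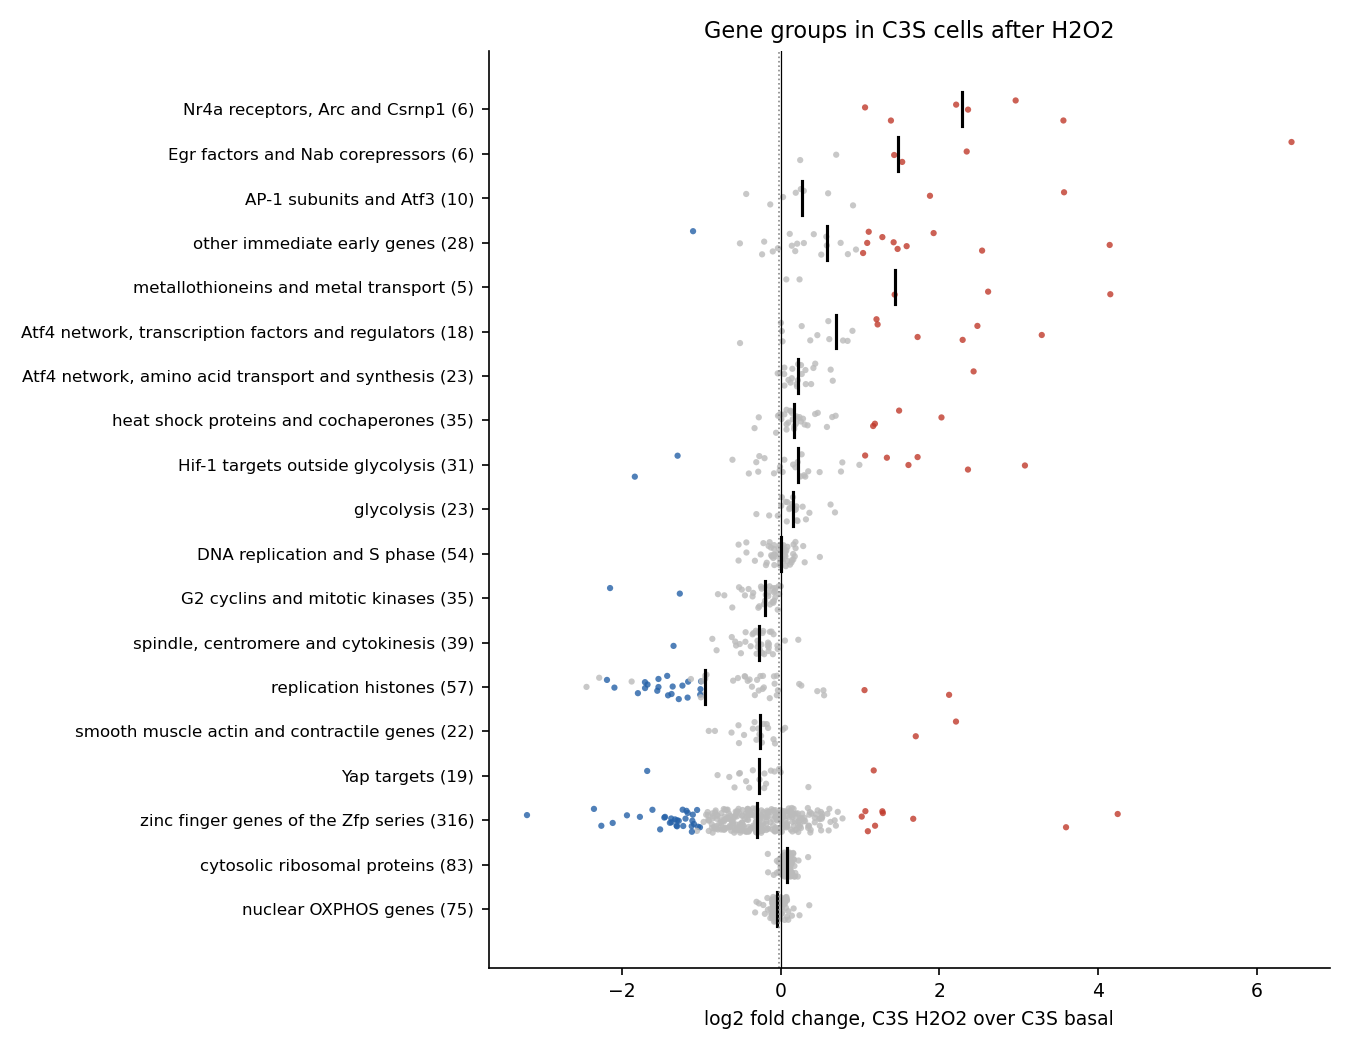
Each point is a tested gene, placed by its log2 fold change in C3S cells and coloured red (called higher), blue (called lower) or grey (not called), with the number of tested genes in brackets. Black bars are group medians and the dotted line is the median of all 12673 genes (-0.02); the medians of the early gene and metallothionein groups lie to the right of it, and those of replication histones (-0.95) and the Zfp series (-0.29) to the left.

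Zinc finger genes of the Zfp series, most of which encode DNA-binding repressors or proteins of unknown role, formed the largest list. It held the most called falls, whereas replication histones had 20 falls among only 57 tested genes. Of 316 Zfp genes tested 31 fell and 9 rose, where 1.55% of all tested genes were called lower and 6.87% higher. By adjusted p alone 142 Zfp genes were lower and 43 higher, against 22% and 17.9% over all genes. Their median log2 fold change was -0.29 (quartiles -0.65 and 0.07), and 69.6% lay below 0, against 51.9% of the other tested genes. Both H2O2 libraries lay below both basal ones for 187 of the 316 (59.2%), against 36.9% of all tested genes.

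Zfp763 (chromosome 17, 33016863 to 33033402) stood at 127 and 127 normalised counts before and at 31.7 and 34.5 after H2O2 (-1.94, SE 0.212, adjusted p = 4.8e-07). Zfp960 fell from 283 and 400.2 to 91.9 and 149 (-1.52), Zfp51 from 249 and 315 to 105 and 114 (-1.38), and Zfp953 from 77.9 and 95.1 to 35 and 27.8 (-1.47). The falls were not on 1 chromosome: 9 of 42 tested members on chromosome 17 fell (median -0.69), 6 of 32 on chromosome 13 (median -0.36) and 4 of 78 on chromosome 7 (median -0.14). Members of such clusters are similar in sequence, so reads may be split between them. Zfp36, which belongs to the series by name but encodes an RNA-binding early gene product, rose from 743 and 726 to 1886 and 1687 (1.28).

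In WT cells the same 316 genes had a median of -0.05 and 58.2% below 0, with 14 called higher and 4 lower. The WT median over all genes tested in C3S cells was -0.03, and 1033 of 13538 genes were called higher and 236 lower in WT cells. Of the 31 that fell in C3S cells, 1 was also called lower in WT cells and 30 had a negative WT value. The test of the difference between lines called 8 of the 316, all 8 lower in C3S cells, and 1.42% of all 13538 genes tested.

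**Figure D4:**
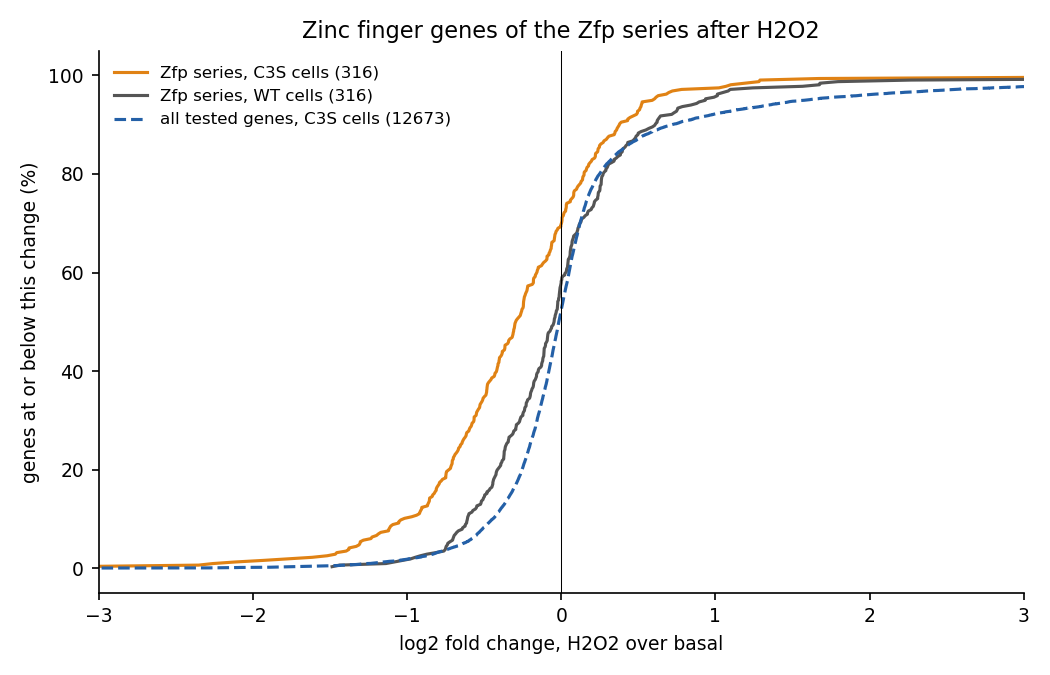
The cumulative share of genes (vertical axis, percent) is drawn against the log2 fold change after H2O2 for the 316 Zfp genes in C3S cells (orange), the same genes in WT cells (grey) and all tested genes in C3S cells (dashed blue). The orange curve lies to the left, with its median at -0.29 against -0.05 in WT cells and -0.02 over all genes in C3S cells.

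Many genes rose from next to nothing. Of the genes called higher, 231 had 3 or fewer counts over both basal libraries and 93 had 0, and since such a gene passes the filter only through the H2O2 group, these counts describe the selection. Mmp25, a membrane-type matrix metalloprotease, had 2 counts in all in the basal libraries and 316 after H2O2, a ratio of 165 (exact 95% interval 45.4 to 1370.0). Slc8a2, a sodium and calcium exchanger, had 1 and 178 (ratio 186, 33 to 7400.0), and Elavl3, a neuronal RNA-binding protein, 2 and 139 (ratio 72.7, 19.8 to 606). Gal3st1, a sulfotransferase, had 0 and 155 counts, at least 54.1-fold higher when 3 counts over the basal group are taken as the floor, and Slc5a2, a renal glucose transporter, 0 and 131, at least 45.7-fold higher.

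Other large rises began from few counts. Celsr2, an atypical cadherin, stood at 8.39 and 11.3 normalised counts and then at 311 and 351 (5.03, SE 0.216), and Cyp27b1, which activates vitamin D, at 4.79 and 7.53 and then 155 and 155 (4.59, SE 0.288). Slc5a5, the iodide transporter, stood at 2.4 and 5.65 and then 146 and 109 (4.88), and Il18r1, a receptor of interleukin 18, at 4.79 and 8.47 and then 126 and 149 (4.30). Myo15, Tmem236 and Npc1l1 rose in the same way (6.11, 4.98 and 5.26). Gm13275, with 0 basal counts, stood at 154 and 52.3 after H2O2, and its call was lost under TMM scaling (adjusted p = 0.0688) and without either basal replicate.

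These genes are known from many cell types. They included Itgam, a myeloid integrin, with 3 and 119 counts, Slc17a7, a neuronal glutamate transporter, with 1 and 101, and Pecam1, an endothelial adhesion molecule, with 1 count in all before and 19 in each library after. Counting error alone is covered by these intervals. Neighbouring genes were counted for them. For 43 of 230 placed genes with 3 or fewer basal counts (18.7%) an active gene on the same strand, with a basal mean of at least 100, ended within 5000 bp upstream. This held for 9.48% of all placed tested genes, for 16.3% of genes called higher with a basal mean of at least 10, for 12.6% of genes with a basal mean under 10 that were not called higher, and for 6.7% of genes called lower. An active gene on the opposite strand within that distance was found for 7.39%, 10.7%, 10.4%, 12.6% and 5.67% of these sets, in the same order. The part of neighbouring transcription in these counts was not tested.

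Called genes were shorter than tested genes at large. The median gene length was 14440 bp for those called higher, 15640 bp for those called lower and 23680 bp for all tested, with a median of 5, 4 and 8 exons in the longest transcript. Long non-coding types were lincRNA, antisense, bidirectional promoter, processed transcript, sense intronic and sense overlapping. They made up 101 of 845 placed genes called higher and 2 of 194 called lower, against 342 of all 12520 placed tested genes. These sets were not matched for level. Their median basal normalised counts were 6.21 for genes called higher, 127 for those called lower and 505 for all tested. Of the higher calls, 524 passed the filter only through the H2O2 group. The part of the level in these values was not tested.

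Much of the increase was also seen in WT cells. Of the 871 genes called higher in C3S cells, 589 (67.6%) were called higher in WT cells, which is 57.0% of the WT calls. Of the 197 called lower, 58 (29.4%) were lower in WT cells, 24.6% of the WT calls. The 282 and 139 calls not shared are not shown to differ by that alone: the test of the difference called 45 and 18 of them. Over all 13538 genes it called 192 (1.42%), 136 with the higher response in C3S cells and 56 with the lower.

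The stress genes with a larger response in C3S cells came from several of the groups above. Slc7a11 went from 236 and 261 to 396 and 411 in WT cells, so the difference of the log2 changes, C3S minus WT, was 1.73 (SE 0.13, adjusted p = 5.3e-12). The difference was 1.54 for Trib3, 1.28 for Chac1, 1.38 for Sesn2, 1.58 for Atf3 and 1.44 for Gadd45a. It was 1.86 for Mt2 and 1.32 for Slc30a1, whose WT libraries stood at 631 and 639.8 before and 711 and 668 after H2O2.

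Early and signalling genes differed too. The difference was 1.70 for Csrnp1, 1.48 for Nr4a1, 1.28 for Skil, 1.14 for Bhlhe40, 1.14 for Vegfa, 1.17 for Lif, 1.07 for Dusp4 and 1.47 for Pim1. Fosb went in WT cells from 1872 and 1751 to 995 and 1027, under 2-fold, and the difference was 1.76 (SE 0.0747). Socs3 fell in WT cells from 919 and 819.7 to 278 and 249, against no called change in C3S cells, a difference of 1.68 (SE 0.135). Smoc1, a secreted calcium-binding protein, stood at 3.6 and 3.77 and then 26.3 and 27.8 in C3S cells and at 156 and 169 and then 78.9 and 77.7 in WT cells (difference 3.89).

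The response was smaller in C3S cells, or of opposite sign, for other genes. Egr1 went from 2449 and 2585 to 14900.0 and 14680 in WT cells, so C3S cells began higher and ended lower (difference -1.02, SE 0.0571), and Jun from 1930.0 and 1816 to 4557 and 4554 (difference -1.03). Without C3S basal replicate 1 the calls on both were lost (Egr1 at -0.98), as were that on Egr1 without WT basal replicate 1 and that on Jun without WT basal replicate 2 (-0.98 each). Hspa1a differed by -1.55, with the limit on its copy given above. Adm stood at 33.6 and 24.5 and then 58.2 and 51.8 in WT cells, below every C3S library (difference -2.21, SE 0.262). Spry1 differed by -1.07, a call lost in most fits that left out a library (-1.17 to -0.97). Sfrp2 differed by -1.19, Zfp763 by -1.30, Zfp39 by -1.69, Zfp40 by -2.57 and Sema3b, a secreted semaphorin, by -3.21 from low counts.

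The difference of the responses contains the basal levels of both lines, so the counts below partly describe the selection. No share over all genes stands beside them. Of the 65 genes called higher in C3S cells with a larger response there, 58 had a lower basal mean in C3S than in WT cells, and 41 ended above the WT level after H2O2. Atf3 shows this, at 372 and 281 in the WT basal libraries and 1327 and 1283 after H2O2, so the C3S cells with the larger fold ended lower. Slc7a11 had similar basal levels in both lines and ended higher in C3S cells. Of the 19 genes called lower in C3S cells with a lower response there, 9 had a lower basal mean in C3S cells and 1 ended above the WT level. Gm3558, Gal3st1 and Ccdc154 also had called differences but a group at or near 0 counts, and no difference is given for them.

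**Figure D5:**
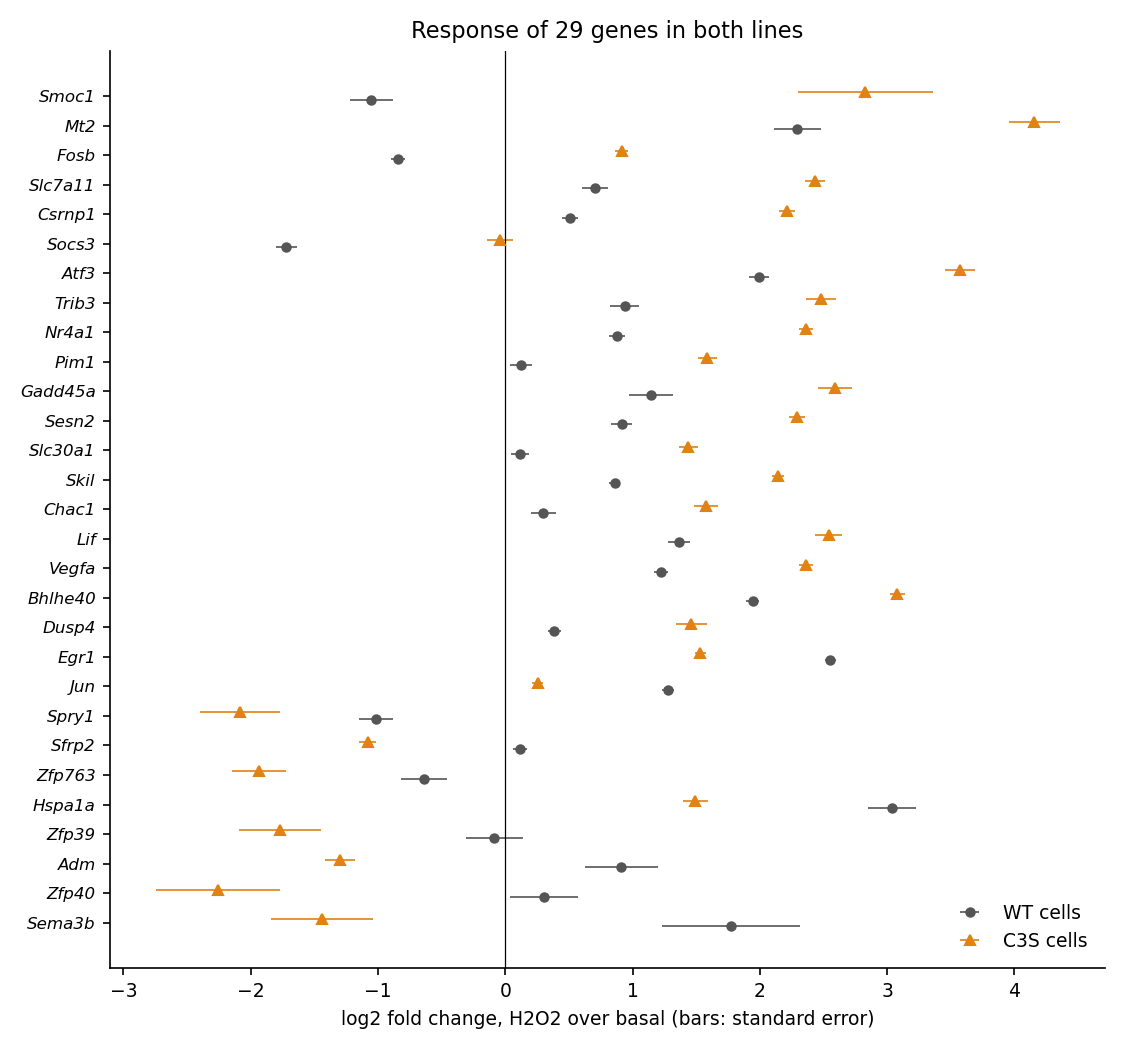
The log2 fold change after H2O2 is plotted for 29 genes in C3S cells (orange triangles) and WT cells (grey circles), with bars for the standard error, ordered by the difference. Smoc1 (3.89) is at the top and Sema3b (-3.21) at the bottom; all 29 differences were called in the fit of all 8 libraries.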

How the data were processed

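RNA-seq was single-end from a directional kit. Per the study's methods and the labels, the authors trimmed reads, mapped them to mm10 (TopHat2 2.0.10) and summed uniquely mapped exonic reads, and deposited expected counts, which need not be whole (58.4% of values above 0 were, within 1e-09). Which program counted, and whether by strand, is not given in the sources used here, hence antisense, overlapping and near-identical genes are uncertain. A second deposited sheet holds a signal, the expected counts divided by 1 size factor per library by the authors, and was not used in tests. A further 24 columns of group values were not used. Of 19041 rows, 27 carry gene names turned into dates (0.28% of counts); 19 were tested and 2 called, none named.

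Expected counts were rounded and scaled by median-of-ratios size factors over all 8 libraries, so changes are relative to the typical gene. Groups came from the sample titles, with 2 libraries each. C3S H2O2 was compared with C3S basal in the 4 C3S libraries with edgeR 4.0.16 (quasi-likelihood F-test, robust, R 4.3.3), and the difference between lines as an interaction over all 8 libraries (13538 genes). SE is the log2 fold change divided by the square root of F. The 2 libraries of a group are biological replicates by the study's text, but no label names separate cultures, so p-values measure the spread between these libraries. Library totals ran from 17050016 to 22260814 counts. Folds against a group at 0 used a floor of 3 counts over the group, and ratios have exact 95% binomial intervals, both for counting error only. The scripts were tested on simulated data. Alternatives were DESeq2 1.42.0, other scalings, filters, call rules and fits, a replicate block, and each replicate left out.

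The 66 lists (7 of cell type markers) and the members were chosen with earlier results of these data known. A gene may stand in several lists and is then counted in each. Named genes were the 10 largest rises and falls with a mean of at least 100, up to 4 called genes per list and direction with a mean of at least 50 (where none was called, those with the smallest p), index genes of each pathway, 8 genes with 3 or fewer basal counts and most counts after H2O2, 6 in each direction by difference between lines, and the 5 highest means per direction; other genes named were chosen after their values were seen. The text gives the ones that differ in function. Genes were placed with GENCODE M21 and promoters taken from RefSeq (10031 of the tested genes matched).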

Additional observations from a re-analysis of the deposited data

Results flagged for a closer look

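The responses of 29 genes to H2O2 differed between C3S and WT cells in the test of the difference itself (interaction of line and treatment, edgeR, adjusted over 13538 genes, of which 1.42% were called). Values are the log2 response of C3S cells minus that of WT cells. It was 3.89 for Smoc1, 1.86 for Mt2, 1.76 for Fosb, 1.73 for Slc7a11, 1.70 for Csrnp1, 1.68 for Socs3, 1.58 for Atf3, 1.54 for Trib3, 1.48 for Nr4a1, 1.47 for Pim1 and 1.44 for Gadd45a. For Sesn2 it was 1.38, for Slc30a1 1.32, for Skil 1.28, for Chac1 1.28, for Lif 1.17, for Bhlhe40 1.14, for Vegfa 1.14 and for Dusp4 1.07. It was below 0 for Egr1 (-1.02), Jun (-1.03), Spry1 (-1.07), Sfrp2 (-1.19), Zfp763 (-1.30), Hspa1a (-1.55), Zfp39 (-1.69), Adm (-2.21), Zfp40 (-2.57) and Sema3b (-3.21). Of the 19 genes with a difference above 0, 16 had a lower basal mean in C3S than in WT cells, and 14 had the higher mean after H2O2. Both levels enter the difference, so these counts partly describe the selection. The part of the basal level in these differences was not tested.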

How the results depend on the processing

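The count of called genes stayed within 1.5 times of 1068 under TMM scaling, library totals, size factors over the 4 C3S libraries, DESeq2, no filter and the fit of all 8 libraries. A minimum mean of 50 called 422, 282 of them higher, and the adjusted p alone called 5054, 2263 higher and 2791 lower, which took the share of higher calls from 81.6% to 66.8% and 44.8%. Leaving out each C3S replicate gave 955 to 1001 calls, 766 to 807 higher and 176 to 204 lower. DESeq2 kept 647 of the 871 higher and 151 of the 197 lower genes, and called 117 differences between lines in place of 192, which ranged from 162 to 208 with 1 replicate left out. Replicate numbers did not pair the C3S libraries (correlation of deviations 0.0263 over 10551 genes), and the fit with the replicate number as a block called 1079 genes, 877 higher and 202 lower, and 203 differences between lines. Of 143 named genes called, 143 kept the call under the block, 137 under DESeq2 and 133 to 139 with 1 replicate left out. Without H2O2 replicate 2 Sfrp2 (-0.98), Cxcl1 (-0.91) and Adamts9 (-0.81) lost the call, and Nr1d1 (0.99) without basal replicate 1. The differences of Egr1, Jun and Spry1, close to 2-fold, lost the call when single replicates were left out. The Zfp series had 26 to 34 genes lower when a replicate was left out and 26 under DESeq2. No named gene that was called changed direction. The cause of these shifts was not tested. With 2 libraries per group, genes of few counts have wide intervals.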
